A study of Mus musculus with 9 samples.

Results

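The clustered replication histone genes were followed in hindlimb skeletal muscle of mice at 2, 7 and 14 days after birth (P2, P7 and P14). Members were all genes measured by a probe set with 1 gene symbol whose current or older symbol carries a cluster name (Hist1h, Hist2h, Hist3h or Hist4h, now H2ac, H2bc, H3c, H4c and the H1 series). A gene with several such probe sets is represented by the brightest of them, averaged over the 9 arrays. This gave 30 of the 22180 genes measured: 5 of class H1, 8 of H2A, 9 of H2B, 8 of H4 and 0 of H3. Of these, 21 were found by the current symbol and 9 by an older Hist symbol among the RefSeq synonyms, and 2 are transcribed pseudogenes (H2af-ps2 and H2bu1-ps). The Hist1 cluster on chromosome 13 supplied 22 members, the Hist2 cluster on chromosome 3 supplied 5, the Hist3 cluster on chromosome 11 supplied 2 and the single Hist4 gene on chromosome 6 supplied 1.

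The 3 age groups are postnatal mice of a strain given only as mixed, with no treatment or genotype named and with 3 biological replicates and so 3 arrays at each age. The sources used here do not say if each sample came from a single mouse or from several, so p-values rest on the variation among these samples only. Values are log2 intensities of whole muscle RNA, and in such bulk samples fewer cells of a type and less RNA per cell cannot be told apart. All 11 skeletal muscle fibre markers stood above the background level defined below in at least 1 age, and 5 of them were higher at P14 than at P2, among them Ryr1 (log2 change 1.03 ± 0.18, SE), Ckm (0.98 ± 0.20), Tnnt3 (0.75 ± 0.16) and Myl1 (0.92 ± 0.21). Among all genes 6.63% were called higher in that comparison. The count of these fibre markers was 3 under another normalisation, cyclic loess, and 3 to 5 without 1 array, with 3 without P14 replicate 2, where the Myl1 call was lost (limma adjusted p = 0.0526). Replicates correlated at 0.981 to 0.984 at P14 and at 0.953 to 0.964 at P2 across genes, which do not vary independently, and the median SD of a gene was 0.163 at P14 against 0.251 at P2.

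Replication histones supply the protein on which newly copied DNA is packed. Core histones H2A, H2B, H3 and H4 form the nucleosome, and H1 histones bind the DNA where it enters and leaves. Their genes lie in clusters as many near-identical copies, are transcribed mainly in S phase, and give messages that end in a stem-loop in place of a poly(A) tail. Some also give tailed transcripts in cells that have stopped dividing. In young muscle, dividing myoblasts and satellite cells add nuclei to fibres whose own nuclei no longer divide. No source used here names the primer that copied the RNA, so how fully messages without a tail were labelled is not known.

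The copies are so alike that most of the family could not be read gene by gene. RefSeq lists 71 cluster histone genes of mouse, and 55 of them lie on probe sets that list several genes, including all 12 H3 genes. Probes of a member with 1 symbol may also read its near-identical copies, to an extent that was not measured.

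The upstream sequence is shown for 6 members on which the results below turn. RefSeq promoters of build GRCm38.p6 were found for 26 of the 30 members. Each line gives the 150 bases just before the annotated start, 5′ to 3′ along the gene, with matches to 5 motifs on either strand in capitals, each motif counted on its own. The first motif is CCAAT, read as ATTGG on the other strand. TATAAA is the core of the TATA box. The motif TTTGCAT is the core of the octamer. The motif AAACACA is known from H1 promoters. The last is TTCGCGC, a letter pattern of E2F sites. H4c9 is the member that rose, H4c17 the H4 gene most like it upstream, H4c12 and H2ac10 the falls with the smallest adjusted p, H2bc12 the gene beside H4c9, and H1f5 the H1 gene with the largest fall.
H4c9, chr13:22041363-22041512, minus strand: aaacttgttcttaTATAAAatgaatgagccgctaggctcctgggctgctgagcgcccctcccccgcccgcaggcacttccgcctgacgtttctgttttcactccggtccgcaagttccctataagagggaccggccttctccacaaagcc
H4c17, chr13:21811596-21811745, plus strand: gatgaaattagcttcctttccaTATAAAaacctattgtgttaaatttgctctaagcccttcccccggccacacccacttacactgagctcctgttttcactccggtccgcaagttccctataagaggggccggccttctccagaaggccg
H4c12, chr13:21750554-21750703, minus strand: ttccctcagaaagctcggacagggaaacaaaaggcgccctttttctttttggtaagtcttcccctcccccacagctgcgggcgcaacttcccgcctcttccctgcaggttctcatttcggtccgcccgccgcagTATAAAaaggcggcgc
H2ac10, chr13:23533725-23533874, plus strand: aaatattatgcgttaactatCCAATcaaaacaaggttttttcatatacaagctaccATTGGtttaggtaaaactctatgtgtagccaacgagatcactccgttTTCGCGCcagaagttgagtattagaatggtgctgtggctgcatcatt
H2bc12, chr13:22035671-22035820, plus strand: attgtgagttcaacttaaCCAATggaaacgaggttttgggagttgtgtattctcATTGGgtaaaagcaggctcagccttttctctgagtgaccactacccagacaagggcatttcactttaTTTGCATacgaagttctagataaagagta
H1f5, chr13:21780626-21780775, minus strand: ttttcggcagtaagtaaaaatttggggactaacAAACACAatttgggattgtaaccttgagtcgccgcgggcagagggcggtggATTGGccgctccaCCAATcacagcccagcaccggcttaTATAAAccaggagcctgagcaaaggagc

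The classes differed in the letters upstream. In the 250 bases before the start, CCAAT stood in 5 of 5 H1, 7 of 7 H2A and 7 of 7 H2B promoters but in 1 of 7 H4 promoters, against 33.8% of the 32851 promoters of the table. TTTGCAT stood in 4 of 7 H2A and 5 of 7 H2B promoters and in 0 of the H1 and H4 promoters, against 4.12% of all promoters. AAACACA stood in 4 of 5 H1 promoters (6.25% of all), and TATAAA in 13 of 26 member promoters (12.4% of all). TTCGCGC stood in 3 of 26 (1.28% of all), among them H2ac10. The windows of H4c9 and H4c17 were identical in 108 of 162 aligned positions (66.7%), against 36.4% to 54.1% for all other pairs of H4 members. A match of letters describes the window and does not show a bound site.

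Of the cluster histone genes that changed between P14 and P2, all but 1 were lower at P14. With limma's moderated test, adjusted over all 22180 genes, 11 members were lower at P14 than at P2, 1 was higher and 18 were not called. The share of all genes called at the same threshold (adjusted p under 0.05) was 11.0%, with 4.40% lower and 6.63% higher. The falls covered every class with members: 3 of 5 H1, 3 of 8 H2A, 3 of 9 H2B and 2 of 8 H4 genes, and the gene that rose was an H4 gene. In all 11 genes that fell the P7 mean lay between those of the other ages. The arrays of P14 lay wholly below those of P2 for 13 members and wholly above for 1, which happened for 12.6% and 16.2% of all genes.

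**Figure D1:**
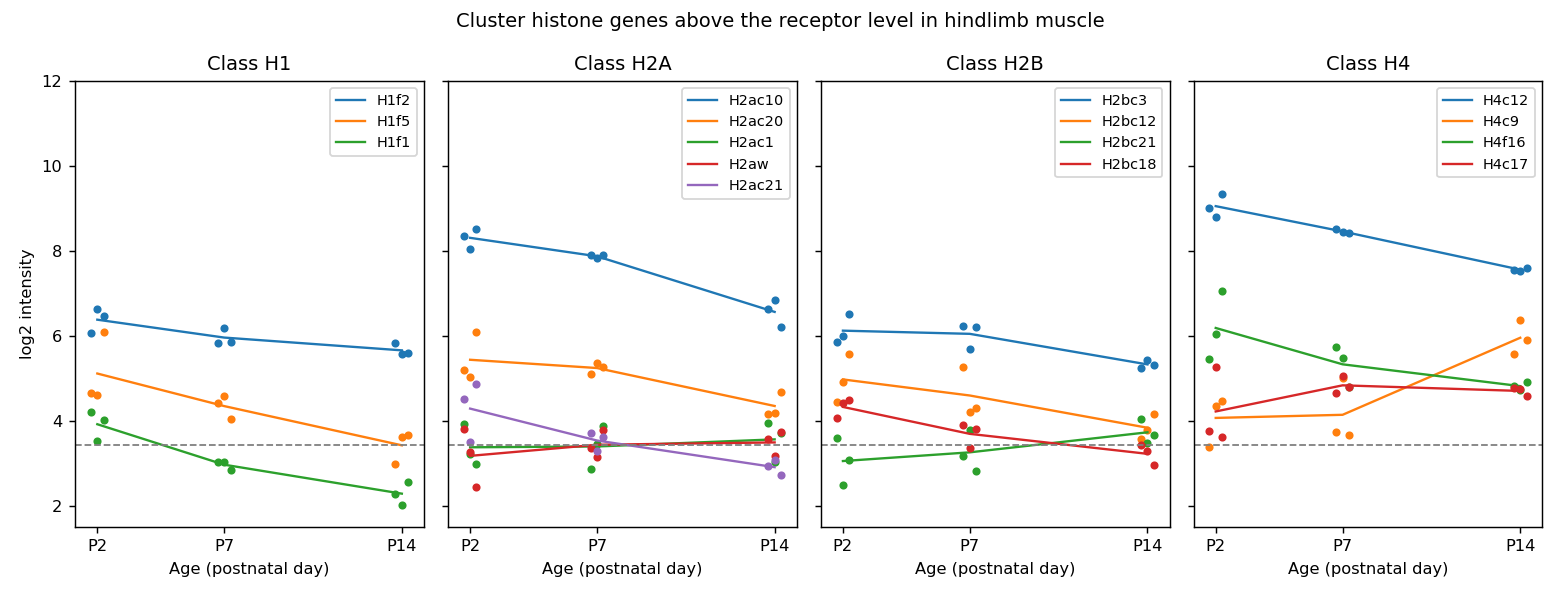
The log2 intensity (vertical axis) of the 16 members above the receptor level is plotted against age for each class, with 1 point per array, lines through the age means and the receptor level of 3.43 dashed. The means of H2ac10 and H4c12 are lower at each later age, and H4c9 stands at 5.58 to 6.37 at P14, above its values at the other ages.

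As a background level, the highest age mean of 1428 smell and taste receptor genes was taken for each gene, and their 95th percentile was 3.43. Of the 30 members 16 exceeded it in at least 1 age, and the other 14 had age means of 0.87 to 2.98. None of those 14 was called, and 2 of them, H1f3 and H4c2, still had all P14 arrays below all P2 arrays (log2 change -0.52, adjusted p = 0.127, and -0.42, adjusted p = 0.197). H1f6 and H2bc1, known as testis histones, were among the dim genes, with highest age means of 2.34 and 1.26. H2ac1, another testis histone, stood just above the level at 3.56 and changed by 0.19 ± 0.30 (SE), which was not called. No fold is given below for a gene whose mean at either age was under the receptor level.

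Among the linker histones, 3 of 5 fell. H1f2, which encodes the H1.2 subtype, had log2 values of 6.06, 6.62 and 6.46 at P2, 5.82, 6.19 and 5.86 at P7, and 5.82, 5.56 and 5.59 at P14. Its P14 arrays lay just under its P2 arrays, a change of -0.72 ± 0.19 (SE) or 1.65-fold (adjusted p = 0.0236). H1f5, the H1.5 subtype, had 4.66, 4.59 and 6.08 at P2, 4.41, 4.58 and 4.04 at P7, and 2.98, 3.63 and 3.65 at P14. All 3 ages were separate, and 1 P2 array was far above the others; P14 differed from P2 by -1.69 ± 0.33 (adjusted p = 0.00417). H1f1, the H1.1 subtype, had 4.21, 3.52 and 4.02 at P2, 3.02, 3.03 and 2.84 at P7, and 2.28, 2.01 and 2.55 at P14. Its ages were also separate, with a change of -1.64 ± 0.20 (adjusted p = 0.000139), and P7 against P2 stood at -0.95 (adjusted p = 0.0637). The call of H1f2 ended when P2 replicate 2, P2 replicate 3, P14 replicate 2 or P14 replicate 3 was left out, with an adjusted p of up to 0.0996.

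Class H2A held the largest fall of all members. H2ac10 of the Hist1 cluster had 8.35, 8.05 and 8.52 at P2, 7.90, 7.83 and 7.89 at P7, and 6.64, 6.84 and 6.21 at P14. Its 3 ages did not overlap, and P14 was 3.35-fold lower than P2 (log2 -1.74 ± 0.19, adjusted p = 4.98e-05). P14 also fell below P7 (log2 -1.31 ± 0.19, adjusted p = 0.00159), and P7 against P2 stood at -0.43 (adjusted p = 0.365). The difference between the intervals was not called (adjusted p = 0.509). H2ac20 of the Hist2 cluster had 5.18, 5.03 and 6.09 at P2, 5.10, 5.37 and 5.26 at P7, and 4.16, 4.19 and 4.69 at P14. P2 and P7 overlapped and P14 lay below both, 2.13-fold under P2 (log2 -1.09 ± 0.25, adjusted p = 0.0117). That call was lost without P14 replicate 1 or 2 (adjusted p up to 0.0593). H2ac21, also of the Hist2 cluster, had 4.51, 3.49 and 4.86 at P2, 3.71, 3.28 and 3.61 at P7, and 2.93, 3.07 and 2.71 at P14. Its P14 arrays were all under its P2 arrays (log2 -1.38 ± 0.28, adjusted p = 0.00516), while its second probe set, dim at every age, changed by -0.30 and the mean of both by -0.84 (adjusted p = 0.0165). H2aw, the H2A gene of the Hist3 cluster, had 3.81, 3.26 and 2.45 at P2, 3.36, 3.15 and 3.78 at P7, and 3.58, 3.16 and 3.72 at P14. Its ages overlapped (log2 0.32 ± 0.29, adjusted p = 0.558).

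In class H2B, 3 of 9 members fell. H2bc3 had 5.86, 5.99 and 6.51 at P2, 6.24, 5.68 and 6.21 at P7, and 5.24, 5.42 and 5.31 at P14. The first 2 ages overlapped and P14 lay below both, 1.74-fold under P2 (log2 -0.80 ± 0.21, adjusted p = 0.0232). H2bc12 had 4.43, 4.92 and 5.56 at P2, 5.26, 4.21 and 4.30 at P7, and 3.58, 3.77 and 4.15 at P14. Again only P14 stood apart, 2.20-fold under P2 (log2 -1.14 ± 0.30, adjusted p = 0.0256). H2bc18, of the Hist2 cluster, had 4.07, 4.41 and 4.49 at P2, 3.89, 3.36 and 3.81 at P7, and 3.42, 3.28 and 2.95 at P14. P2 lay above both later ages, with P14 at -1.10 ± 0.20 (adjusted p = 0.0026). H2bc21, known as H2be and in mouse as a variant of olfactory neurons, had 3.59, 2.47 and 3.08 at P2, 3.18, 3.77 and 2.81 at P7, and 4.04, 3.48 and 3.65 at P14. It overlapped between ages and was not called (log2 0.68 ± 0.28, adjusted p = 0.155). The call of H2bc3 was lost without P2 replicate 3 or any P14 array (up to 0.0897), and that of H2bc12 without P2 replicate 3 or P14 replicate 1 or 2 (up to 0.110).

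The H4 genes went in both directions although almost all mouse H4 genes encode the same protein. H4c12 had 9.01, 8.80 and 9.34 at P2, 8.51, 8.43 and 8.43 at P7, and 7.55, 7.54 and 7.59 at P14. The 3 ages were separate, with P14 at 2.82-fold under P2 (log2 -1.50 ± 0.17, adjusted p = 6.56e-05) and 1.87-fold under P7 (log2 -0.90 ± 0.17, adjusted p = 0.0121). H4f16, the gene of the Hist4 locus, had 5.45, 6.04 and 7.05 at P2, 5.73, 5.47 and 4.78 at P7, and 4.81, 4.73 and 4.91 at P14. Its P2 arrays spread widely, and all lay above P14, which was 2.58-fold lower (log2 -1.37 ± 0.33, adjusted p = 0.0139). That call was lost without P14 replicate 1 or 2 (up to 0.0574), and a second, dim probe set of H4f16 changed by -0.26, the mean of both by -0.81 (adjusted p = 0.0361).

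H4c9, formerly Hist1h4i, was the only member called higher in a comparison of all 9 arrays. It had 3.38, 4.34 and 4.47 at P2, 3.73, 5.02 and 3.67 at P7, and 5.58, 6.37 and 5.91 at P14. P2 and P7 overlapped, and every P14 array stood above all 6 earlier ones. P14 was 3.70-fold above P2 (log2 1.89 ± 0.35, adjusted p = 0.0031) and 3.52-fold above P7 (log2 1.81 ± 0.35, adjusted p = 0.0131), with P7 against P2 at 0.074 ± 0.35 (adjusted p = 0.953). The difference between the intervals, 1.74 ± 0.61, was not called (adjusted p = 0.442). The call against P2 held with each array left out (adjusted p up to 0.0218), and the call against P7 ended when P7 replicate 1, P7 replicate 3, P14 replicate 2 or P14 replicate 3 was left out (up to 0.0851).

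H4c17, whose upstream window is closest to that of H4c9, had 3.76, 5.27 and 3.62 at P2, 4.66, 5.05 and 4.78 at P7, and 4.77, 4.75 and 4.58 at P14. One P2 array, replicate 2, lay above all later ones and the other P2 arrays lay below them. The gene was not called at P14 against P2 (log2 0.48 ± 0.32, adjusted p = 0.403). Without P2 replicate 2 it was called higher at P14 (log2 1.01, adjusted p = 0.00313) and at P7 (log2 1.14, adjusted p = 0.0167), both against P2. That array also had the lowest S phase marker level of its age, as given below.

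Direct neighbours in the clusters could differ in direction. In the RefSeq gene order H4c9 (log2 change 1.89 at P14 against P2) stood directly next to H2bc12 (-1.14). On the other side of H2bc12 stood H2ac12, a dim gene at -0.095. H2ac10, at -1.74, stood next to the dim H4c8 at 0.019, and H4c12, at -1.50, next to the dim H2ac15 at -0.15. In the Hist2 cluster H2ac21 (-1.38), H2ac20 (-1.09) and H2bc21 (0.68, not called) followed each other. In the 250 bases before the start H4c9 and H2bc12 both had a TATAAA match, which for H2bc12 lies outside the stretch printed above. Of the other motifs, CCAAT stood in the H2bc12 promoter and not in that of H4c9. The same held for TTTGCAT. It also held for TTCGCGC, whose match in the H2bc12 promoter likewise lies outside the printed stretch. These differences did not set H4c9 apart from H4 genes that fell. The promoter of H4c12, which was lower at P14, had the same matches as that of H4c9, TATAAA alone. That of H4f16, which was also lower, had a match to none of the motifs. A link between the motifs and the direction of change was not tested.

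**Figure D2:**
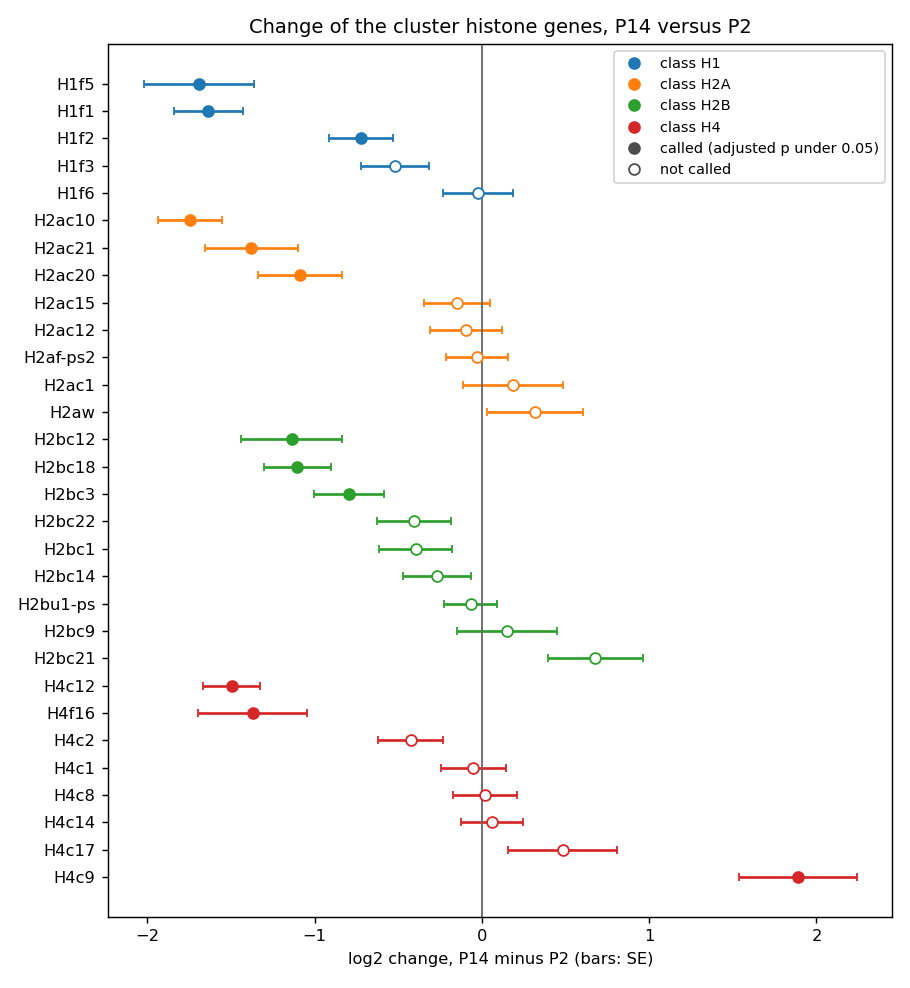
The log2 change at P14 minus P2 (horizontal axis, bars are SE) is drawn for all 30 members, grouped by class, with filled points for members called at an adjusted p under 0.05. The 11 filled points on the left run from H2ac10 at -1.74 to H1f2 at -0.72, and H4c9 is the 1 filled point on the right.

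Each interval was also tested by itself. Between P7 and P2, 0 of 30 members were called by limma (0.329% of all genes were). In the same comparison 8 members had an unadjusted p under 0.05, as did 12.8% of all genes, and all 8 were lower at P7: H1f1, H1f2, H1f5, H2ac10, H2ac21, H2bc18, H4c12 and H4f16. The P7 arrays lay wholly below the P2 arrays for 5 members (H1f1, H1f5, H2ac10, H2bc18 and H4c12) and wholly above for 0, which happened for 7.90% and 7.30% of all genes. Between P14 and P7, 3 members were called, H2ac10 and H4c12 lower and H4c9 higher, with 2.43% of all genes called (0.703% lower, 1.72% higher). The P14 arrays lay wholly below the P7 arrays for 12 members and wholly above for 1, against 9.13% and 14.8% of all genes. The H4c12 call was lost without P7 replicate 1 or any 1 of the P14 arrays (adjusted p up to 0.0683). No member's change differed between the intervals in limma's test (0 called, with 0.194% of all genes called). At an unadjusted p under 0.05 there were 3 of 30 members, near the share of all genes, 8.12%. Without P2 replicate 2, 3 members were called at P7 against P2: H1f1 lower (log2 -1.15, adjusted p = 0.0232), H2ac21 lower (log2 -1.15, adjusted p = 0.0255) and H4c17 higher.

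Over all members of a class, the median log2 change at P14 against P2 was -0.72 in H1, -0.40 in H2B, -0.12 in H2A and -0.016 in H4, and the median of all genes was 0.013. The H2A median was 0.018 after cyclic loess normalization, with the opposite sign. These medians include the 14 dim genes, and with so few members per class they are descriptions only. Members of 1 class share sequence and are not replicates of each other.

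Of the family's other genes, 2 of class H2A lay on none of the listed probe sets, and the rest could be read only as groups. This was done through 38 probe sets that list several cluster histone genes, 3 of which repeat another's values on all arrays. Some of these probe sets also list members, so they are not separate from the values above. The 35 distinct ones were fitted together with all 41345 probe sets of the table. At P14 against P2, 11 were lower and 0 higher, where 4.53% of all probe sets were called. By class, 5 of 9 H2A, 2 of 8 H2B, 3 of 12 H3 and 1 of 5 H4 probe sets were lower. At P14 against P7, 4 H2A and 1 H2B probe sets were lower (0.658% of all), and at P7 against P2 0 were called by limma (0.0145% of all). At an unadjusted p under 0.05 there were 13 of the 35 at P7 against P2, and 11.3% of all probe sets. Leaving out 1 array at a time gave 6 to 14 lower at P14 against P2, with 6 or 7 without any 1 of the P14 arrays, and 1 to 5 at P14 against P7. It gave 1 higher at P14 against P2 without P2 replicate 2, a probe set of H2bc4, H2bc6 and H2bc8, and 1 without P2 replicate 3, a probe set of H1f4 with the same 3 H2B genes.

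The largest fall of the family was in H2A. A probe set listing 10 H2A genes had 7.48, 6.77 and 7.93 at P2, 6.51, 6.30 and 6.00 at P7, and 4.43, 4.72 and 4.24 at P14. Its ages were separate and P14 differed from P2 by -2.93 ± 0.28 (adjusted p = 0.000706). A probe set for H2ac18, H2ac19 and H2ac20 of the Hist2 cluster, bright at 9.96, 9.66 and 10.01 at P2, had 9.16, 9.16 and 9.22 at P7 and 8.24, 8.45 and 8.27 at P14. It fell by 1.56 on the log2 scale (adjusted p = 0.000737), beside -1.09 for the probe set of H2ac20 alone.

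Class H3, which has no member of its own, was visible in 3 shared probe sets above the receptor level. One that lists H3c1, H3c8, H3c10 and H3c11 had 6.31, 6.65 and 6.49 at P2, 6.77, 6.10 and 6.54 at P7, and 5.54, 5.47 and 5.48 at P14. P14 stood below both earlier ages, which overlapped (log2 -0.99 ± 0.19 against P2, adjusted p = 0.0217). A second probe set of the same 4 genes changed by -1.09 ± 0.22 (adjusted p = 0.0228). It stood above the receptor level at P2 alone, with age means of 4.01, 3.34 and 2.91. A probe set of 8 other H3 genes changed by -0.91 ± 0.21 (adjusted p = 0.0412). Each of these 3 calls was lost when certain single arrays were left out, with the adjusted p up to 0.147. The call of the 8 H3 genes was lost without 8 of the 9 arrays in turn. The other 9 of the 12 H3 probe sets were dim and not called, with changes of both signs at P14 against P2.

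Shared probe sets of H2B differed in direction at P14 against P2. The 5 of H4 all had negative changes, of which 1 was called, but only 2 of the 5 stood above the receptor level. A dim one changed by only -0.017. A probe set of 12 H2B genes had 9.94, 9.67 and 10.23 at P2, 9.44, 9.45 and 9.15 at P7, and 8.30, 8.39 and 8.16 at P14, a separate step at each age (log2 -1.66 ± 0.18 for P14 against P2, adjusted p = 0.00135). One of 2 probe sets of H2bc4, H2bc6 and H2bc8 had 7.34, 8.63 and 8.13 at P2, 8.33, 8.54 and 8.29 at P7, and 8.76, 8.79 and 8.80 at P14. All P14 arrays stood above all P2 arrays there, yet the change of 0.75 ± 0.28 was not called (adjusted p = 0.185). The other probe set of the same 3 genes, whose mean stood above the receptor level at P2 alone with 4.21, 2.56 and 4.56 at P2, 2.86, 2.31 and 2.27 at P7, and 3.06, 2.12 and 2.11 at P14, had a change of the opposite sign that was not called either (log2 -1.35 ± 0.48, adjusted p = 0.163). Without P2 replicate 2 both were called, the first higher (log2 1.04, adjusted p = 0.043) and the other lower (log2 -1.96, adjusted p = 0.0156). The probe set that lists H1f4 with these 3 genes changed by 0.78 ± 0.32 (adjusted p = 0.221), and without P2 replicate 3 it was called higher (log2 1.17, adjusted p = 0.024). A probe set of 6 H4 genes that include H4c9 and H4c17 had 4.75, 4.66 and 5.38 at P2, 4.43, 4.44 and 4.27 at P7, and 4.31, 3.86 and 3.82 at P14. It was lower at P14 (log2 -0.94 ± 0.22, adjusted p = 0.0459), opposite to the probe set of H4c9 alone, and that call was lost without 8 of the 9 arrays in turn (up to 0.164).

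**Figure D3:**
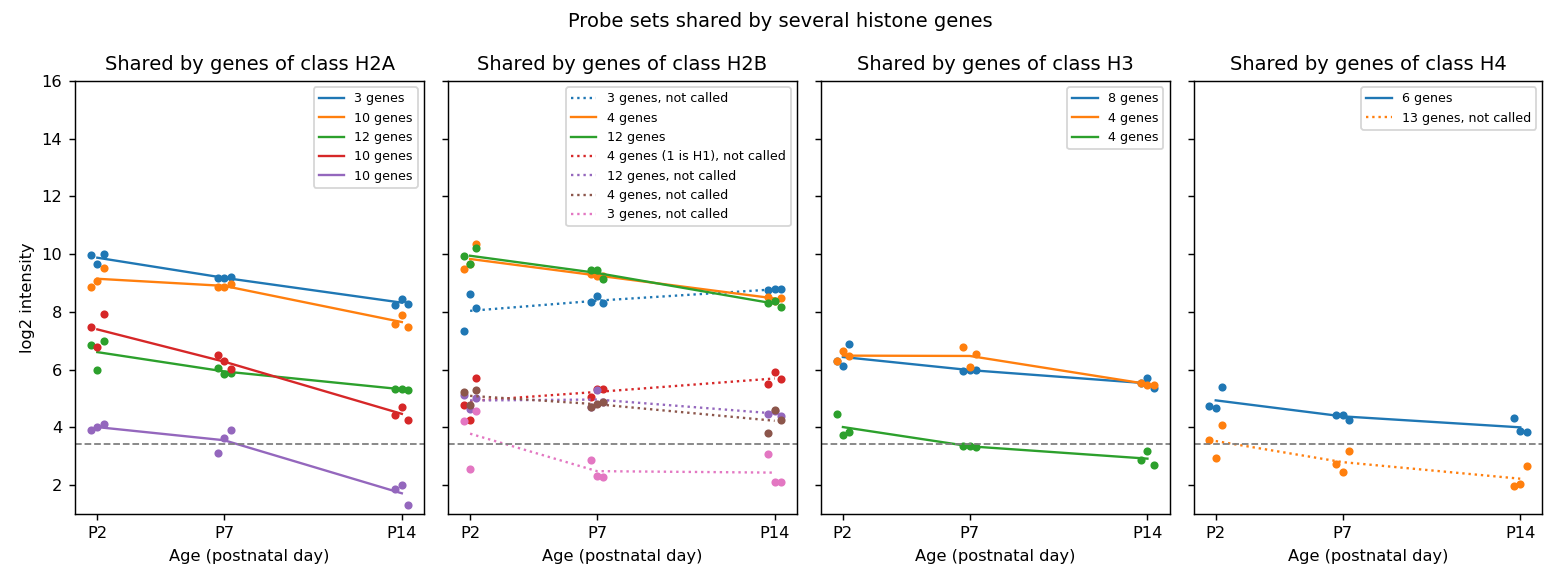
The log2 intensity (vertical axis) of the 17 shared probe sets above the receptor level is plotted against age, with 1 point per array, solid lines where P14 against P2 was called and dotted lines where it was not. In H2A and H3 every line drawn ends lower at P14 than at P2. A probe set could pass the level at P2 alone. The dim H3 probe sets, whose changes had both signs, are not drawn. The dotted line of 3 H2B genes near the top of its panel goes up to 8.76 to 8.80 at P14.

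Genes of DNA replication and division were lower at P14 than at P2 as well. In that comparison 4.40% of all genes were called lower. Of 21 measured S phase markers 13 fell and 0 rose (median log2 change -0.89), among them the primase gene Prim1 at -1.60 ± 0.20 (adjusted p = 0.000139), the thymidylate synthase gene Tyms at -0.97 ± 0.16 (adjusted p = 0.00125), the replicative helicase gene Mcm6 at -1.19 ± 0.20 (adjusted p = 0.00148) and the origin licensing gene Cdc6 at -0.96 ± 0.17 (adjusted p = 0.00192). Of 15 mitosis markers 14 fell (median -1.28), with the DNA topoisomerase gene Top2a at -1.73 ± 0.20 (adjusted p = 8.59e-05) and the proliferation marker Mki67 at -1.66 ± 0.21 (adjusted p = 0.000168). Leaving out 1 array at a time gave 5 to 18 falls among the S phase markers, with 5 without P2 replicate 1, and 12 to 15 among the mitosis markers. The mean level of the S phase markers was 4.43 on P2 replicate 2, against 5.07 and 5.22 on the other P2 arrays. Of the 16 members above the receptor level, 10 were highest of the P2 arrays on replicate 3. The mean of these 16 members on P2 replicate 2 was only just under the 5.02 of replicate 1, with 5.35 on replicate 3. Their H4 mean was higher on P2 replicate 2 (6.11) than on replicate 1 (5.40). Their H1, H2A and H2B means were lower on replicate 2 than on replicate 1.

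Histone chaperones carry histones to new DNA. Of 17 measured, 4 fell at P14 against P2 and 0 rose: Nap1l1 at -0.81 ± 0.18 (adjusted p = 0.00873), the FACT subunit gene Supt16 at -0.89 ± 0.21 (adjusted p = 0.012), Asf1b at -1.03 ± 0.25 (adjusted p = 0.0141) and Rbbp4 at -0.72 ± 0.20 (adjusted p = 0.0335). Each was lost without at least 1 single array, and the count ran from 1 to 6. Among all genes 4.40% were called lower in that comparison. Of 15 measured genes that switch on histone transcription or cut and degrade histone messages, 0 were called by limma, with 4 at an unadjusted p under 0.05 (24.3% of all genes) and a median of -0.079. The smallest p of that list was that of Lsm1, a gene of message decay, at -0.52 ± 0.17 (adjusted p = 0.072). Of 10 histone genes outside the clusters, most of them replacement histones made outside S phase as well, 1 fell, the centromeric Cenpa at -0.92 ± 0.28 (adjusted p = 0.0498, lost without 8 of the 9 arrays in turn), and their median was 0.16.

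**Figure D4:**
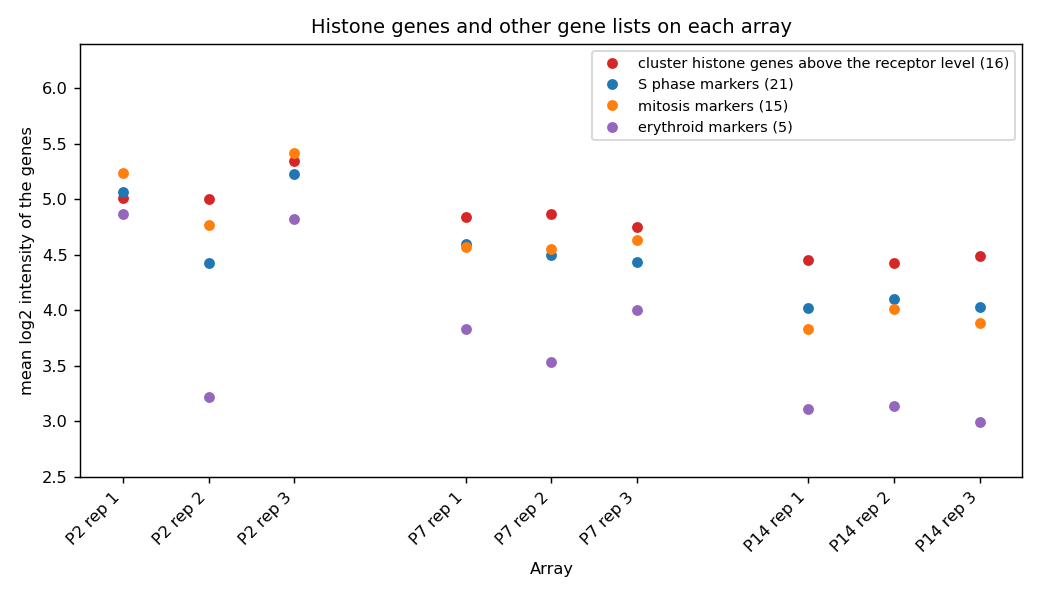
The mean log2 intensity (vertical axis) of the 16 histone members above the receptor level and of 3 gene lists is shown on each of the 9 arrays. The S phase markers are lowest at P14, at 4.02 to 4.10, and the erythroid markers on P2 replicate 2, at 3.22, stand apart from 4.87 and 4.82 on the other P2 arrays.

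Markers of other cells that divide, or that carry replication histone messages, were read beside these falls. Among all genes 4.40% were called lower at P14 than at P2. Of 5 measured erythroid markers 2 were lower at P14 than at P2 (Rhag at -1.97 ± 0.51, adjusted p = 0.0213, and Epb42 at -1.01 ± 0.26, adjusted p = 0.0228), and their summed linear level was 44.9 to 53.0 at P14 against 52.9 to 198 at P2. Of 8 neutrophil precursor markers 2 were lower (Elane at -0.65 ± 0.20, adjusted p = 0.0484, and Ltf at -1.21 ± 0.37, adjusted p = 0.049), with a summed level of 54.0 to 61.3 at P14 against 58.9 to 176 at P2. Of 8 satellite cell and myoblast markers 3 were lower (Myf5 at -1.12 ± 0.22, adjusted p = 0.00415, Vcam1 at -0.76 ± 0.22, adjusted p = 0.0408, and Cdh15 at -0.61 ± 0.18, adjusted p = 0.0417), with a summed level of 341 to 397 at P14 against 388 to 516 at P2. Among the satellite cell and myoblast markers, 1 to 4 were called lower and 0 to 1 higher when 1 array was left out. Except for Myf5, each marker call named here was lost without several single arrays. The part of these cells in the histone falls was not tested.

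The remaining marker lists held few calls, where 4.40% of all genes were called lower at P14 than at P2 and 6.63% higher. Limma called 0 of 8 macrophage markers (1 at an unadjusted p under 0.05), 0 of 7 lymphocyte markers (0), 0 of 5 Schwann cell markers (1) and 0 of 6 male germ line markers (1) at P14 against P2, and 0 of the male germ line markers stood above the receptor level at any age. Of 8 endothelial markers 1 was higher (Esam at 0.74 ± 0.20, adjusted p = 0.0267). Of 8 fibroblast markers 1 was higher (Gsn at 0.55 ± 0.16, adjusted p = 0.0449) and 1 lower (Pdgfra at -0.63 ± 0.19, adjusted p = 0.0496). Every one of these 3 calls was lost without several single arrays.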

How the data were processed

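RNA of mouse hindlimb muscle was labelled as biotinylated cRNA and hybridised to arrays, per the labels' protocols. The authors deposited log2 intensities of 41345 probe sets on 9 arrays; RMA and Partek are named without versions in the submitters' processing notes, and the log2 base follows from RMA, which also removes background and normalises. No source used here names the platform or the genome build. Array medians were 3.29 to 3.36, and precision is limited by the number of arrays. Groups follow the labelled age.

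A platform table pairs 23521 probe sets with 1 symbol. Of these 23328 matched RefSeq (GRCm38.p6) by Entrez number, used for names, synonyms, gene order and promoters, and 22180 genes resulted, with no filter. H1 genes outside the clusters (3 measured) were not counted as members. Of 175 list genes 152 were measured, 9 through a synonym.

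limma 3.58.1 (R 4.3.3) fitted 1 mean per age with empirical Bayes moderation. Two-sided p-values were adjusted over the whole gene table (Benjamini-Hochberg), and an adjusted p under 0.05 was a call. In data simulated for P14 against P7 on 22180 genes the fit recovered 96% of genes changed by 2 on the log2 scale and 68% of those changed by 1. The simulated noise was independent between genes and had the same SD at every age, so these shares need not hold for the real arrays. Promoters were aligned with Biopython 1.88.

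The members and lists were chosen with earlier results of these data known. Named members are those called, the 2 brightest of each class and the largest changes per pair of ages among members above the receptor level; from each list up to 4 called genes were named, or else the gene with the smallest p. Dim neighbours, testis histones and shared probe sets were named after their values were seen. No pairing by replicate number was seen, which does not exclude one. Deviations of same-numbered arrays correlated at -0.029 to 0.057, and those of arrays with different numbers at -0.082 to 0.106. Alternatives were median centring, cyclic loess, a filter on dim genes, averaged probe sets, other moderation, a replicate block, leaving out each array and, added after seeing the data, all probe sets in 1 fit.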

Additional observations from a re-analysis of the deposited data

How the results depend on the processing

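Of the 12 members called at P14 against P2, 7 were called under all 16 alternatives (H1f1, H1f5, H2ac10, H2ac21, H2bc18, H4c9 and H4c12), and no member's called change turned its sign. The count of members called was 7 in the fit of all probe sets, chosen after seeing the data, and 7 to 12 without 1 array, with 7 without P14 replicate 2. At P14 against P7 it was 5 under cyclic loess (H2ac20 and H2bc3 added, both lower) and 1 to 5 without 1 array; at P7 against P2 it was 1 with the filter on dim genes and 1 with trend and robust moderation (H1f1 in both) and 0 to 3 without 1 array. The difference of the intervals gave 0 under every leave-one-out. With the replicate number as a block the counts were 0, 3, 12 and 0, and the block changed no member's call.

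Cyclic loess turned the H2A median at P14 against P2 to 0.018 and split the calls of all genes into 1216 higher and 1318 lower, against 1470 and 977, and at P14 against P7 into 240 and 213, against 382 and 156. With only members above the receptor level, the medians were -0.77 in H1 at P7 against P2 and -1.64 at P14 against P2. In H2A they were -0.63 at P14 against P7 and -1.09 at P14 against P2. At P7 against P2, P14 against P7 and P14 against P2 they were -0.23, -0.60 and -0.95 in H2B. In the same order they were -0.26, -0.32 and -0.44 in H4. These members had to be bright at 1 age, so the filter can keep a gene through the age where it is high. H1f1, whose change is the H1 value of -1.64, passed at P2 alone (age means 3.92, 2.96 and 2.28). H2ac1 and H2bc21 passed at P14 alone. The larger falls after the filter can therefore come in part from the filter, and they are descriptions only.

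Without 1 array the class medians at P7 against P2 ran from -0.58 to -0.28 in H1, -0.21 to -0.12 in H2A, -0.19 to -0.039 in H2B and -0.027 to 0.10 in H4. At P14 against P7 they ran from -0.74 to -0.45, -0.37 to -0.12, -0.37 to -0.12 and -0.22 to -0.024 in the same order of classes, and at P14 against P2 from -0.88 to -0.65, -0.17 to -0.080, -0.47 to -0.26 and -0.14 to 0.051. The cause of these shifts was not tested. Of the values of single named members under the alternatives, 679 kept their side of the threshold, 12 gained a call and 29 lost one. Genes near or below the receptor level have little signal over background, so a change there can be larger than shown.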
